A study of Mus musculus with 31 samples.

Results

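Steady-state mRNA was compared between the cerebral cortex of mice deficient in Fmr1, labelled FXS, and of wild-type mice (WT), in 8 of the 31 libraries of the study. The 4 FXS and 4 WT mRNA libraries were chosen by their genotype labels, and each of the batches 5 to 8 held 1 library of either genotype. Cortices were dissected at P29 to P34 and libraries were made from polyadenylated RNA with an Illumina TruSeq protocol. Another 8 mRNA libraries, 4 of mice deficient in Rps6kb1 (S6K1) and 4 of mice deficient in both genes (DKO), came from the same batches and shared 1 model with the 8 compared here. The FXS and DKO mice share the Fmr1 deficiency, and the WT and S6K1 mice do not have it. The labels give neither the allele, the strain, the sex nor the number of animals behind a library, and nothing says that replicates came from separate animals, so that p-values measure the spread between these libraries.

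Fmr1 encodes FMRP, an RNA-binding protein of neurons that associates with many mRNAs of synaptic and chromatin proteins and is best known as a brake on their translation at synapses. Loss of FMRP causes fragile X syndrome in people, and the Fmr1-deficient mouse is the usual model, studied for exaggerated protein synthesis, metabotropic glutamate receptor signalling and altered inhibition in cortex. Because FMRP acts on RNA, the mRNA level itself is a baseline on which effects on ribosomes are read.

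The count tables gave 12.13 to 14.01 M counts per WT library and 13.44 to 17.27 M per FXS library, and 14215 of 20436 gene symbols had enough counts to be tested. Levels are given in CPM, the counts of a gene scaled to a common library total, with library sizes scaled by the TMM method. The neuronal genes Snap25 and Rbfox3 were at 1956 CPM or more and 192 CPM or more in each of the 8 libraries, and the vesicular glutamate transporter gene Slc17a7 of cortical excitatory neurons at 1446 CPM or more. Batch 5 stood apart in both genotypes, with summed microglial markers at 416 CPM in WT and 417 in FXS against 1003 to 1174 in the other 6 libraries. Its astrocyte markers summed to 3262 and 3286 CPM against 4731 to 5772, so differences were taken within batches.

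Fmr1 (chrX:68678536-68717963, GRCm38, the build also called mm10) was checked first. Its mRNA stood at 77.6, 64.2, 72.9 and 55.6 CPM in the WT libraries of batches 5, 6, 7 and 8, and at 22.1, 13, 16.1 and 14.5 CPM in the FXS libraries in the same order, which is the order used for all values below. No FXS library came near a WT library, and the mean was 4.12-fold lower. On the log2 scale the change was -2.05 ± 0.116 (standard error, SE, as for every ± beside a log2 fold change; adjusted p 3.69e-10 by edgeR's quasi-likelihood test with Benjamini-Hochberg adjustment over all genes tested). Transcript from the locus was thus reduced but still counted in FXS, and the labels do not say which part of the gene is disrupted. Among 19 tested genes of the Fmr1 family and of proteins that partner with FMRP, the paralogs were level: Fxr1 changed by -0.09 and Fxr2 by 0.05 on the log2 scale (adjusted p 0.587 and 0.788).

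A gene was called at an adjusted p under 0.05. In the model of all 16 mRNA libraries, with terms for batch and genotype, 22 of 14215 genes were called (0.155%), 11 higher and 11 lower in FXS (0.0774% each). Each of the 22 moved in the same direction in all 4 batches, whereas over all genes tested 11.9% were higher and 12.1% lower in 4 of 4 batches. In 7 of the 22, no FXS library reached the range of the WT libraries, against 3.34% of all genes tested, of which 1.41% were higher and 1.93% lower in that way. Both properties follow in part from the call itself, which used these libraries and the batch term, and add no separate evidence. Away from Fmr1 the changes were small: rises ran from 0.30 to 0.49 and falls from -0.32 to -1.34 on the log2 scale. Fitting only the 8 WT and FXS libraries, so that the spread came from these 2 genotypes alone, called 446 of 13933 genes (3.20%), 279 higher (2.00%) and 167 lower (1.20%), all 22 among them. The authors' deposited table of the same comparison lists 187 of 6885 genes with an adjusted p under 0.05 (2.72%), 152 higher (2.21%) and 35 lower (0.508%). Of those 187, 180 (96.3%) were among the 446, all with the same sign, and they made up 40.4% of the 446. With 1 WT or FXS library left out, the 16-library model called between 2 genes (without WT of batch 7 or FXS of batch 6) and 86 genes (without FXS of batch 8). Fmr1 and Akr1c18 were called each time, and each of the other 20 genes lost its call without at least 1 library, with adjusted p of at most 0.257 and an unchanged direction. RLE size factors in place of TMM called 42 genes, 30 higher and 12 lower, and DESeq2 204, 165 higher and 39 lower, so the split between directions moved with the model. Results below name the model, as the 16-library or the 8-library model.

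**Figure D1:**
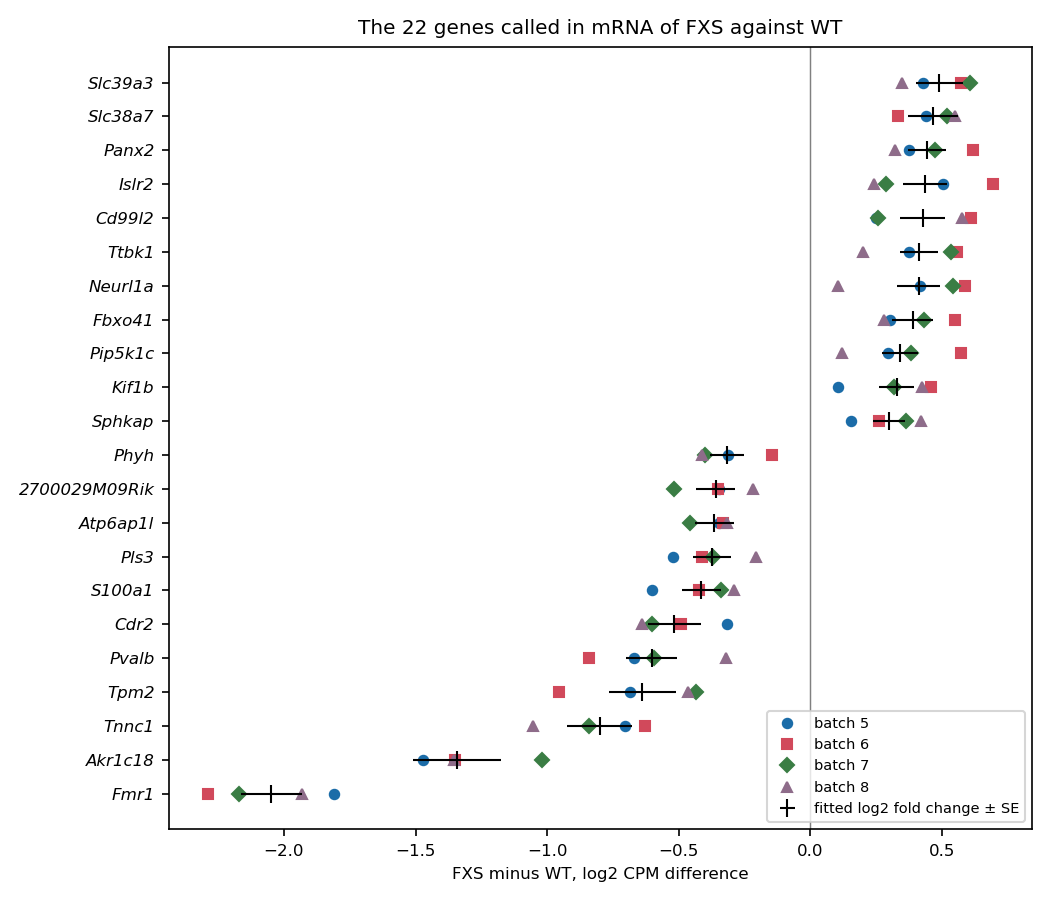
Difference in log2 CPM between the FXS and WT library of each batch (coloured symbols, 1 per batch) for the 22 genes called in the 16-library model, with the fitted log2 fold change and its standard error (black). All 22 genes lie on 1 side of zero in all 4 batches, and Fmr1 at -2.05 and Akr1c18 at -1.34 lie farthest from it.

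The largest fall after Fmr1 was in a steroid-metabolising enzyme. Akr1c18 (chr13:4132615-4150646) encodes a hydroxysteroid dehydrogenase that inactivates progesterone. It stood at 7.94, 8.05, 5.50 and 6.96 CPM in WT and at 2.77, 3.07, 2.64 and 2.64 CPM in FXS. All FXS libraries were below all WT libraries, with a log2 fold change of -1.34 ± 0.167 (adjusted p 0.000253). The gene is weakly expressed, with 380 counts over the WT libraries and 172 over the FXS libraries, and belongs to a cluster of close relatives among which reads can be shared. Its relative Akr1c14 held 89 and 77 counts and was not called (adjusted p 0.714). Of 8 aldo-keto reductases tested out of 18 listed, Akr1c18 was the 1 called, and the median log2 fold change was -0.12 against -0.01 over all genes. The 8-library model called 3.20% of all genes and the 16-library model 0.155%. Over 21 tested genes of neurosteroid synthesis and steroid receptors, Akr1c18 included, the median was 0.00, and no other member was called in either model.

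Genes best known from muscle also fell. Tnnc1 (chr14:31208312-31211729), troponin C of slow and cardiac muscle, stood at 34.8, 27.7, 36.7 and 26.5 CPM in WT and 21.3, 17.9, 20.4 and 12.7 CPM in FXS. Tpm2 (chr4:43513726-43523583), beta-tropomyosin, stood at 13.3, 13.8, 11.7 and 12.6 CPM in WT and 8.20, 7.06, 8.58 and 9.06 CPM in FXS. In both genes the groups did not overlap, and the log2 fold changes were -0.80 ± 0.123 (adjusted p 0.00776) for Tnnc1 and -0.64 ± 0.129 (0.042) for Tpm2. Of 21 troponin, tropomyosin and other sarcomere genes listed, 16 were tested, and their median log2 fold change was -0.36 against -0.01 over all genes. The list median was negative in every batch, at -0.35, -0.07, -0.23 and -0.32. The 8-library model called Tnnc1, Tpm2 and Tnnt1 lower, where 1.20% of all genes were, and none higher, and 5 members, Ttn and Tpm4 as well, did not overlap between genotypes, where 1.93% of all genes were lower in that way.

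Tnnt1, slow troponin T, is also a marker of the thalamus. Its WT libraries held 11, 18.9, 9.16 and 9.94 CPM and its FXS libraries 8.26, 7.52, 6.70 and 6.85 CPM. The WT library of batch 6 was the highest by far, and that library also held the most of 14 thalamus markers, which summed to 287 CPM there, to 164 to 202 in the other WT libraries and to 144 to 169 in FXS. Prkcd, a defining thalamus marker, was at 46.4 CPM in that library and at 10.7 to 16.1 in the other 7. Tnnt1 was called in the 8-library model (log2 fold change -0.68, adjusted p 0.0164) and was no longer called without batch 6 (-0.46, adjusted p 0.196). The part of thalamic tissue in these differences was not tested. Tnnc1 in the WT library of batch 6, at 27.7 CPM, lay within the range of the other WT libraries, while Tpm2 had its highest WT and its lowest FXS value in batch 6.

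Parvalbumin mRNA was lower in FXS. Pvalb (chr15:78191112-78206400), the calcium buffer that marks fast-spiking inhibitory interneurons, stood at 103, 93.6, 82.2 and 64.4 CPM in WT and 64.4, 52.2, 54.4 and 51.4 CPM in FXS. The difference had the same direction in each batch and the ranges met at 64.4 CPM, with a log2 fold change of -0.60 ± 0.0973 (adjusted p 0.00927). Of 25 tested genes of parvalbumin and fast-spiking interneurons, Pvalb was the 1 called in either model, and the list median was -0.03. Over all genes, 3.20% were called in the 8-library model and 0.155% in the 16-library model. Syt2 and Vamp1, presynaptic proteins of fast-spiking cells, were at -0.31 and -0.21 (adjusted p 0.36 and 0.389, unadjusted p 0.0383 and 0.0489). Both were below WT in all 4 batches, without passing the test. Hapln4, another member of the list, was at 0.21 (16-library adjusted p 0.392, unadjusted p 0.0497) and above WT in all 4 batches. Of the 25 genes, 15 had a negative and 10 a positive log2 fold change. In bulk cortex, fewer cells of a type and less RNA per cell cannot be told apart, here and for every gene below. Leaving out 1 library lost the Pvalb call for 6 of 8 libraries in the 16-library model, with an adjusted p of at most 0.0842 and a log2 fold change between -0.52 and -0.72.

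Among 29 tested markers of other inhibitory interneurons the median was 0.00, and the 1 gene called was Cort, in the 8-library model only, which called 3.20% of all genes. Cort (chr4:149125034-149126763) encodes the neuropeptide cortistatin. It stood at 6.44, 6.94, 5.25 and 6.82 CPM in WT and 9.92, 9.29, 10.3 and 8.42 CPM in FXS, so that every FXS library was above every WT library. The 8-library model gave a log2 fold change of 0.58 ± 0.15 (adjusted p 0.0338), and the 16-library model an adjusted p of 0.136. Sst, which is expressed in overlapping cells, changed by 0.10 (adjusted p 0.684).

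The other 6 lower genes of the 16-library model ranged from -0.32 to -0.52. Cdr2 (chr7:120957036-120982312), a target of antibodies in paraneoplastic cerebellar degeneration, stood at 22.3, 21.9, 20.1 and 22.9 CPM in WT and 17.9, 15.5, 13.2 and 14.6 CPM in FXS, with no overlap. S100a1, a calcium-binding protein, fell by 0.41 (adjusted p 0.0166), from 44.4, 63.3, 55.7 and 54.0 CPM to 29.2, 47.1, 44 and 44.1 CPM. Pls3 on the X chromosome (chrX:75785653-75875182), an actin-bundling plastin, stood at 124, 160, 168 and 156 CPM in WT and 86.5, 120, 130 and 135 CPM in FXS. The ranges of S100a1 and Pls3 overlapped because batch 5 was low in both genotypes, while the difference within each batch had 1 direction. Phyh, which starts the peroxisomal breakdown of phytanic acid, changed by -0.32, Atp6ap1l by -0.37 and 2700029M09Rik by -0.36 (adjusted p 0.042, 0.042 and 0.046).

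**Figure D2:**
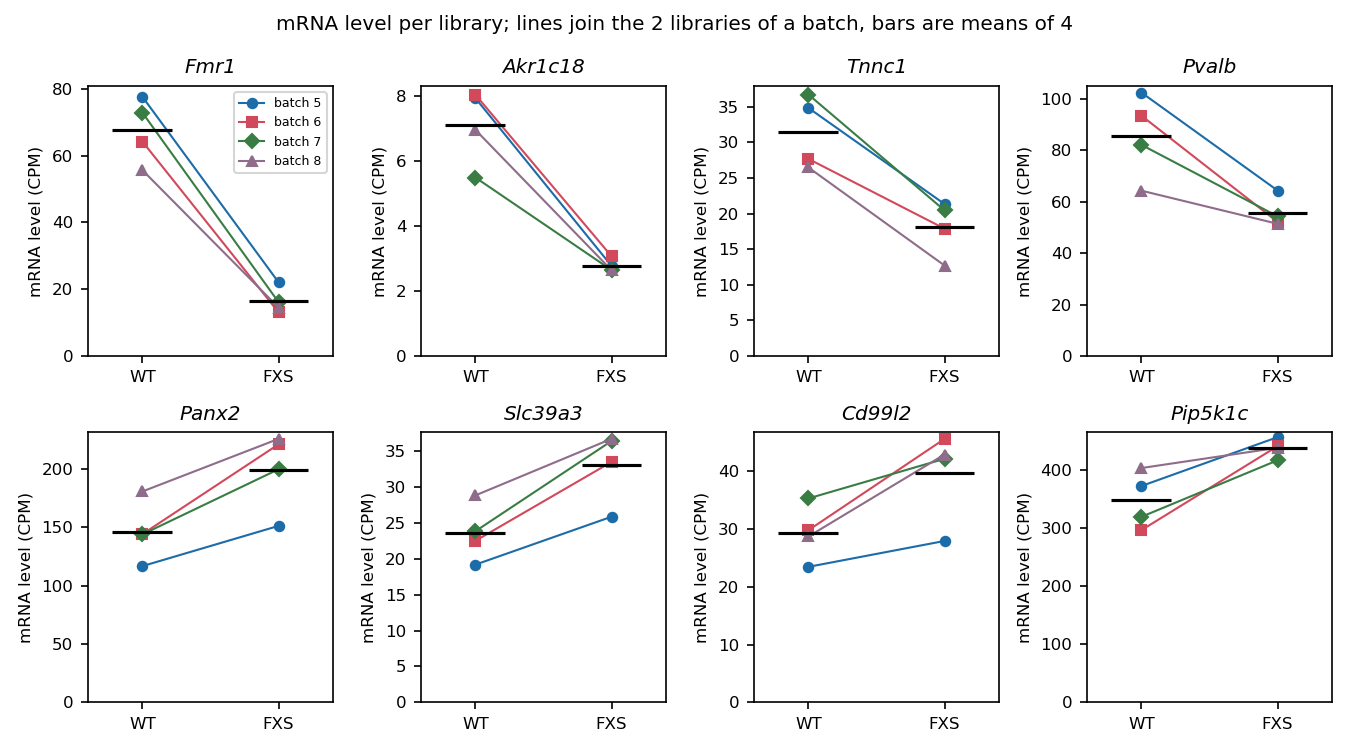
Level of 8 of the called genes in each library (CPM, linear axes from 0), with the WT and FXS library of a batch joined by a line and group means as black bars. For Fmr1, Akr1c18, Tnnc1 and Pip5k1c the genotypes do not overlap, while Panx2, Slc39a3 and Cd99l2 rise in every batch from a batch 5 level below the others.

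Among the 11 higher genes, Panx2 (chr15:89059057-89073566), a pannexin channel subunit of the brain, stood at 117, 144, 144 and 181 CPM in WT and 151, 221, 200 and 226 CPM in FXS. It rose by 0.44 ± 0.0713 (adjusted p 0.00793), and of the other 11 pannexins and connexins tested none was called in either model, with Panx1 at -0.06. Slc39a3 (chr10:81028540-81037338), a zinc importer, stood at 19.2, 22.5, 23.8 and 28.8 CPM in WT and 25.8, 33.5, 36.4 and 36.7 CPM in FXS, a rise of 0.49 ± 0.09 (0.0268). In both genes the lowest FXS library was that of batch 5, inside the range of WT, and the within-batch differences were all positive.

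Slc38a7, a glutamine transporter, rose by 0.47 (adjusted p 0.0456) and Islr2, a leucine-rich membrane protein of growing axons, by 0.43 (0.0377). Ttbk1, a neuronal kinase of tau, rose by 0.41 (0.0166) and Neurl1a, a ubiquitin ligase at synapses, by 0.41 (0.042). Ttbk1 held 73.2 to 115 CPM in WT and 108 to 132 CPM in FXS. Fbxo41 (chr6:85469574-85502994), a neuronal F-box protein, stood at 62.2, 50.6, 59.9 and 70.6 CPM in WT and 76.6, 74.1, 80.7 and 85.8 CPM in FXS. Pip5k1c (chr10:81292835-81319974), a lipid kinase that makes phosphoinositides at nerve terminals, stood at 373, 297, 320 and 404 CPM in WT and 457, 442, 417 and 439 CPM in FXS. These were the 2 higher genes of the 22 whose genotypes did not overlap, with log2 fold changes of 0.39 and 0.34 (both adjusted p 0.042). Kif1b, a kinesin of synaptic vesicle precursors and mitochondria, rose by 0.33, and Sphkap, an anchor of protein kinase A, by 0.30 (both 0.042).

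Cd99l2 lies close to Fmr1 on the X chromosome. This adhesion protein gene (chrX:71420060-71492866) stood at 23.4, 29.7, 35.2 and 28.7 CPM in WT and 27.9, 45.5, 42.1 and 42.8 CPM in FXS, a rise of 0.43 ± 0.0867 (adjusted p 0.042). Of 16 tested genes near Fmr1 on the X chromosome, Cd99l2 was called in both models and Ids in the 8-library model, where 2.00% of all genes were higher. Ids (chrX:70343069-70385834), a lysosomal sulfatase, stood at 511, 388, 441 and 475 CPM in WT and 538, 566, 526 and 547 CPM in FXS, without overlap, with a log2 fold change of 0.27 ± 0.0643 (adjusted p 0.0239 in the 8-library model, 0.102 in the other). The median of the 16 was 0.05, and 9 were positive, where 47.9% of all genes were.

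Larger differences were sought among the genes called in the 8-library model with a mean of at least 5 CPM and no overlap between genotypes. The 8 largest rises were Cort, Neurl1b, Slc9a7, Dpysl5, Grik3, Samd10, Soga1 and Irgq, from 0.58 to 0.40. Grik3 (chr4:125490259-125714173), a kainate receptor subunit, stood at 18.8, 15.9, 19.8 and 20.2 CPM in WT and 27.4, 24.6, 25.5 and 24.5 CPM in FXS (log2 fold change 0.45 ± 0.0939, adjusted p 0.00941). Dpysl5, a collapsin response mediator of growing neurites, held 13.6 to 16.3 CPM in WT and 17.9 to 22.6 CPM in FXS. Slc9a7, a sodium-proton exchanger of the Golgi, held 9.23 to 10.7 and 11.7 to 16.5 CPM. Besides Fmr1, Tnnc1, Tnnt1 and Tpm2, the largest falls were Ctxn2, Nsun7, Glipr1 and Bfsp2, from -0.75 to -0.56. Ctxn2, a cortexin of neuronal membranes, held 5.96 to 6.55 CPM in WT and 2.64 to 5.16 CPM in FXS. The adjusted p of these 12 genes that the 16-library model did not call ran from 0.07 to 0.188 there.

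Messages bound by FMRP were described next. A list of 102 mRNAs reported as bound by FMRP in brain held 99 genes tested, and 92 of them (92.9%) had a positive log2 fold change, against 47.9% of all genes. The median was 0.18 against -0.01 over all genes, and within batches 5 to 8 the list medians were 0.12, 0.28, 0.17 and 0.11, where those of all genes were between -0.01 and 0.01. In the 8-library model 36 of the 99 rose and none fell, beside 2.00% of all genes higher, and in the 16-library model Kif1b alone was called. The 36 depended on single batches, with 22, 8, 3 and 46 genes called without batch 5, 6, 7 and 8, while the median stayed between 0.15 and 0.21 in all settings run.

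Bsn (chr9:108096022-108190419), the presynaptic scaffold bassoon, stood at 126, 145, 167 and 222 CPM in WT and 175, 215, 242 and 248 CPM in FXS (8-library log2 fold change 0.43 ± 0.063, adjusted p 0.00106). Chd5 (chr4:152338646-152390194), a neuronal chromatin remodeller, stood at 186, 164, 195 and 188 CPM in WT and 218, 222, 232 and 223 CPM in FXS, with no overlap (0.29 ± 0.0555, adjusted p 0.00628). Adcy1, a calcium-activated adenylyl cyclase, held 73.0 to 144 CPM in WT and 114 to 155 CPM in FXS and rose by 0.36 (adjusted p 0.00953). In the 16-library model these 3 genes had adjusted p of 0.0606, 0.0651 and 0.0548. Of the 7 members with a negative value, Arc, an activity-regulated gene, had the lowest at -0.28 (adjusted p 0.824).

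Lists of synaptic function, which share members with the FMRP-bound list, moved in the same direction. Of 27 postsynaptic scaffold genes 8 rose in the 8-library model, beside 2.00% of all genes, and none fell, with a median of 0.16. Camk2a, the kinase of dendritic spines, rose by 0.29 (adjusted p 0.0314), and Dlgap4 and Dlg2, scaffolds of the postsynaptic density, by 0.23 and 0.24 (0.0339 and 0.0281). Of 25 tested sodium and calcium channel genes 6 rose, beside the same 2.00%, with a median of 0.15. Scn2a1 and Scn8a, the main sodium channels of axons, rose by 0.29 and 0.24 (0.00824 and 0.0186), and Cacna1b, a calcium channel of nerve terminals, by 0.27 (0.0183). All these values are from the 8-library model, and none of these genes was called with 16 libraries.

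Synaptic vesicle and release genes numbered 61, with a median of 0.13; 6 rose in the 8-library model and none fell, where 2.00% of all genes rose. Slc17a7, the vesicular glutamate transporter of cortical excitatory neurons, rose by 0.26 (adjusted p 0.0415), Syn1 by 0.23 (0.0271) and Ppfia3 by 0.35 (0.027). Among 30 AMPA, NMDA and kainate receptor genes the median was 0.12 and 3 rose, Grik3, Grin1 and Shisa7, beside the same 2.00%. For the metabotropic glutamate receptor pathway and Homer proteins, 2 of 18 rose, Grm5 and Grm7, and the median was 0.09. Grm5, the receptor most studied in fragile X models, stood at 51.3, 58.1, 70.0 and 73.1 CPM in WT and 58.3, 78.7, 86.7 and 77.1 CPM in FXS (0.25 ± 0.0671, adjusted p 0.0381, and 0.25 with 16 libraries). The ranges overlapped, and Grm5 was higher in FXS in each batch.

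GABA receptor and potassium channel genes had medians closer to zero. Of 19 GABA receptor genes, with a median of 0.03, 3 rose in the 8-library model, beside 2.00% of all genes: Gabbr2 by 0.25 (adjusted p 0.0237), Gabrb2 by 0.30 (0.0371) and the inhibitory-synapse adhesion gene Nlgn2 by 0.23 (0.0437). Of 69 potassium channel genes 1 rose, Kcnma1 by 0.24 (0.044), and the median was 0.05, a share of calls below that of all genes. In the 8-library model, 3 of 32 genes of cAMP and phosphodiesterases rose (Adcy1, Adcy9 and Pde2a), none of 10 endocannabinoid genes passed, and 1 of 31 actin regulators, Abi2, rose. Chromatin remodelling and histone methylation genes had a median of 0.07 over 62, and Chd5 and Trrap were among those that rose.

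**Figure D3:**
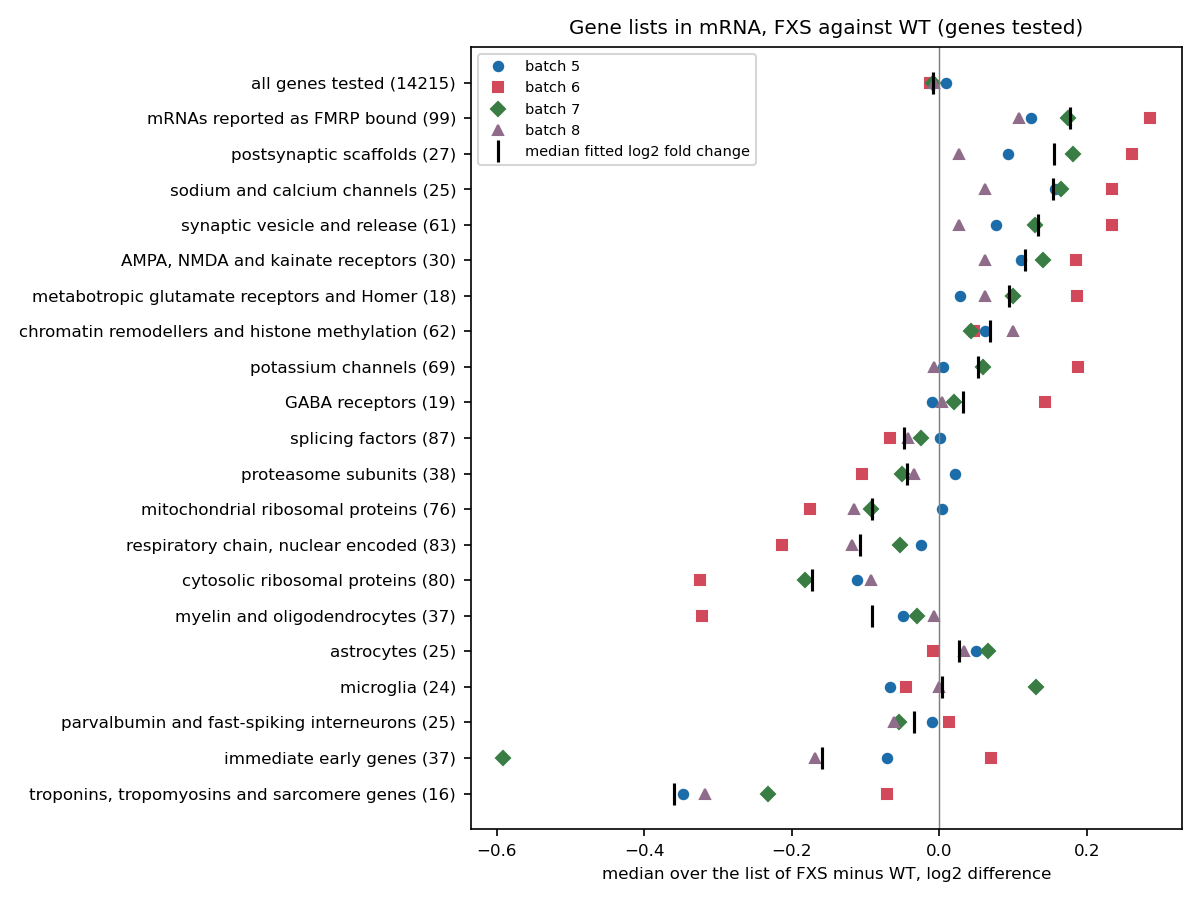
Median over each gene list of the FXS minus WT difference in log2 CPM, per batch (coloured symbols) and in the 16-library fit (black bars), with the number of genes tested in brackets. The FMRP-bound, scaffold, sodium and calcium channel, vesicle and glutamate receptor lists lie right of zero in each batch and the cytosolic ribosomal protein list lies left of it, with batch 6 farthest out for the FMRP-bound and ribosomal protein lists.

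Cytosolic ribosomal protein mRNAs shifted the other way. Each of the 80 tested, of 83 listed, had a negative log2 fold change, from -0.34 to -0.02, and the median was -0.17. The list medians in batches 5 to 8 were -0.11, -0.32, -0.18 and -0.09. Summed over the list, the WT libraries held 35820, 40956, 34967 and 38904 CPM and the FXS libraries 33384, 33303, 30703 and 36906 CPM, lower in each batch but with overlapping ranges. In the 8-library model 26 fell and none rose, beside 1.20% of all genes lower, and in the 16-library model none was called, with 38 lower at an unadjusted p under 0.05, where 5.95% of all genes were. In 14 of the 80 the genotypes did not overlap, beside 1.93% of all genes lower in that way. Without batch 5, 6, 7 or 8, the 8-library model called 2, 0, 0 and 43 of them, and the median stayed between -0.25 and -0.13 in all settings run. Genes that lie in many processed copies in the genome, as ribosomal protein genes do, can share reads with those copies.

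The 4 ribosomal protein genes with the smallest p among those called in either model were Rps15a, Rpl22, Rpl23 and Rpl38. Rps15a stood at 283, 287, 251 and 259 CPM in WT and 248, 201, 205 and 229 CPM in FXS (8-library log2 fold change -0.29 ± 0.0598, adjusted p 0.00929). Rpl38 stood at 211, 261, 203 and 232 CPM in WT and 183, 182, 172 and 200 CPM in FXS (-0.29 ± 0.0596, 0.00929). Both were lower in FXS without overlap, by narrow gaps of 251 against 248 CPM for Rps15a and 203 against 200 CPM for Rpl38. Many ribosomal protein mRNAs start with a run of pyrimidines, the 5′ terminal oligopyrimidine (TOP) motif through which mTORC1 controls their translation. The bases from 10 before to 20 after the annotated start are printed for these 4 genes from RefSeq on GRCm38.p6, on the gene's strand and 5′ to 3′, to show how their starts differ. Capitals mark a run of at least 5 C or T that begins with C within 5 bases of the start. Where a gene had several annotated starts, a start with such a run was printed if there was any. A gene was counted as holding a run if any of its starts did.

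Rps15a, chr7:118116128-118116157, minus strand: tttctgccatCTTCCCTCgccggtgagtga
Rpl38, chr11:114668570-114668599, plus strand: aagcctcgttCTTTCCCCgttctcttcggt
Rpl22, chr4:152325716-152325745, plus strand: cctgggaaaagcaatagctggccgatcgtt
Rpl23, chr11:97782420-97782449, minus strand: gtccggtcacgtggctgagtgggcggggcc

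Such a run was found at the start of Rps15a and Rpl38 and not of Rpl22 and Rpl23, whose annotated starts may differ from those used in cortex. Over the ribosomal protein genes with a promoter sequence, 29 of 59 (49.2%) held a run, against 2558 of 10751 tested genes (23.8%). The median log2 fold change was -0.18 over the 29 with a run and -0.17 over the 30 without. Rpl22 and Rpl23 fell by 0.25 and 0.25 (8-library adjusted p 0.0312 and 0.0165).

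Mitochondrial messages shifted by less. Of 76 mitochondrial ribosomal protein genes 3 fell in the 8-library model, where 1.20% of all genes fell, Mrpl13, Mrpl52 and Mrpl23, and the median was -0.09. The list medians in batches 5 to 8 were 0.003, -0.18, -0.09 and -0.12, widest in batch 6 and near zero in batch 5. Mrpl13 (chr15:55534095-55557312) stood at 74.1, 73.3, 68.5 and 63.3 CPM in WT and 59.1, 58.4, 53.2 and 54.3 CPM in FXS, without overlap (-0.31 ± 0.0637, adjusted p 0.00954). Of 83 nuclear-encoded respiratory chain genes 8 fell, beside the same 1.20%, and none rose, with a median of -0.11. Medians of that list in batches 5 to 8 were -0.02, -0.21, -0.05 and -0.12. Cox5a, Ndufa1, Uqcrb and Ndufa12, subunits of complexes IV, I, III and I, fell by 0.21, 0.26, 0.22 and 0.24 (adjusted p 0.0348, 0.0262, 0.0372 and 0.0183). None of 38 proteasome subunits was called, with a median of -0.04, and of 65 translation factors Eif1 alone fell, a share near that of all genes, with a list median of -0.02. Splicing factors split, with 4 higher, among them Celf5, Celf4 and Prpf8, and 1 lower, Luc7l3, of 87, beside 2.00% of all genes higher and 1.20% lower.

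**Figure D4:**
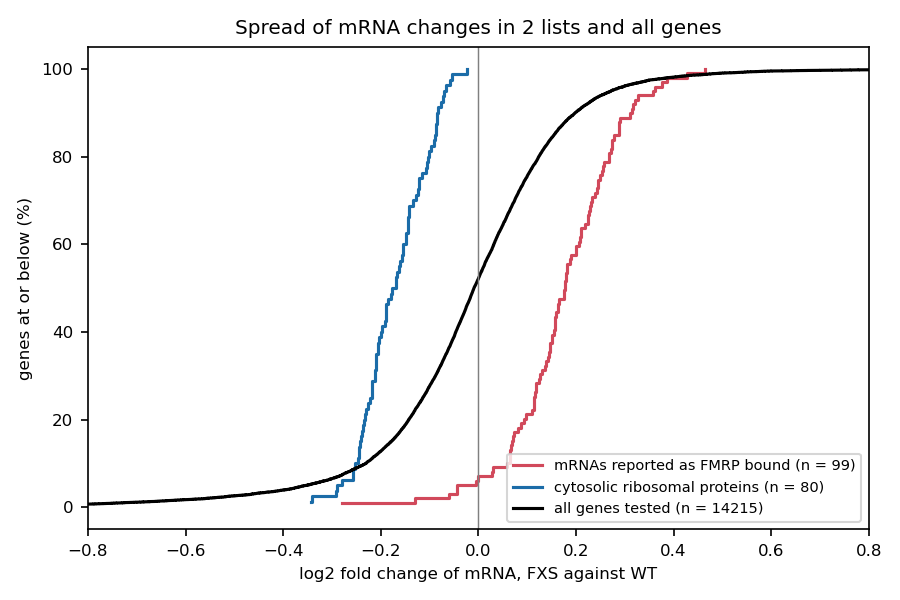
Cumulative share of genes (percent) at or below a given log2 fold change of mRNA in FXS against WT, for 99 FMRP-bound mRNAs, 80 cytosolic ribosomal protein mRNAs and all 14215 genes tested. The medians are 0.18, -0.17 and -0.01, and the ribosomal protein curve ends left of zero.

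The direction of a change also varied with gene size and level over all genes. In 5 equal bins of genomic span from RefSeq, the median log2 fold change was -0.04, -0.02, -0.02, 0.00 and 0.04 from the shortest to the longest. The 8-library model called 21 genes higher and 63 lower in the bin of shortest genes and 99 higher and 18 lower in that of the longest. Each of these bins held 2703 genes, and that model called 2.00% of all genes higher and 1.20% lower. Of 98 FMRP-bound genes with a span, 56 lay in the longest bin, with a median of 0.18, and 78 of 80 ribosomal protein genes lay in the shortest, with a median of -0.17. In batch 5 the bin of shortest genes had a median of 0.02, and in batches 6, 7 and 8 it had -0.07, -0.01 and -0.08. By mean expression, the medians rose from -0.07 in the lowest to 0.02 in the highest of 5 bins. In DKO against S6K1 the order by span ran the other way, from 0.04 in the shortest to -0.03 in the longest bin. The part of span in the list values was not tested.

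Activity-regulated genes had negative medians in 3 of 4 batches. Of 37 immediate early genes 31 had a negative and 6 a positive value (16.2% positive, against 47.9% of all genes). Their median was -0.16, and the batch medians were -0.07, 0.07, -0.59 and -0.17. Fosb stood at 8.08, 13.1, 16.9 and 13.5 CPM in WT and 6.93, 8.37, 5.05 and 7.92 CPM in FXS, and Npas4 at 53.3, 104, 84.9 and 113 CPM in WT and 32.8, 78.8, 33.3 and 62.4 CPM in FXS. Both were lower in each batch with overlapping ranges. The 8-library model called Fosb (-0.84 ± 0.196, adjusted p 0.0392) and Rheb (-0.20, 0.0469) and not Npas4 (0.0708), and the 16-library model called none of the 37. Fosb and Rheb were the 2 members called in the 8-library model, where 1.20% of all genes were lower. Time of day and handling before dissection are not in the labels. Of 22 clock genes Cry1, a repressor of the clock, and Bhlhe40 fell in the 8-library model, beside the same 1.20% of all genes. Cry1 held 29.3 to 32.1 CPM in WT and 23.6 to 25.0 CPM in FXS, without overlap (-0.33 ± 0.0843, adjusted p 0.0315), and the median of the clock list was 0.05.

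Pathways often examined in fragile X models were read next. Of 41 mTORC1 and S6 kinase pathway genes, Mtor rose by 0.21 (8-library adjusted p 0.0483) and Rheb, the activator of mTORC1, fell, and the median was 0.04. That model called 2.00% of all genes higher and 1.20% lower. Rps6kb1 itself was at 39.5 to 55.5 CPM in WT and 41.0 to 53.9 CPM in FXS (log2 fold change -0.03, adjusted p 0.913). No gene of 28 in the integrated stress response was called, with Atf4 at -0.19 and Ddit3 at -0.22 (16-library adjusted p 0.328 and 0.30), and none of 18 in nonsense-mediated decay. Among 25 heat shock and chaperone genes Hspe1 fell, among 19 glucocorticoid-response genes Sgk1 fell, and among 24 glycolysis genes Slc2a3 rose, each in the 8-library model alone. Each was the 1 call of its list, beside the same shares of all genes.

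Markers of other cells were read beside these lists. Of 37 myelin and oligodendrocyte genes, 4 fell in the 8-library model (Mbp, Qdpr, Bcas1 and Sept4; 1.20% of all genes) and Nfasc rose, with a median of -0.09 that came mainly from batch 6, at -0.32, against -0.05, -0.03 and -0.01 in batches 5, 7 and 8. Mbp, myelin basic protein, stood at 458, 963, 791 and 888 CPM in WT and 397, 681, 653 and 788 CPM in FXS, lower in each batch with wide overlap (-0.29 ± 0.059, adjusted p 0.00929). Among 25 astrocyte genes the glutamate transporter Slc1a2 rose by 0.35 (0.00755), beside 2.00% of all genes, and the list median was 0.03. None of 24 microglial, 24 endothelial, 12 pericyte, 16 fibroblast and 10 oligodendrocyte-precursor genes was called. Nor was any of 22 striatal, 15 hippocampal, 11 choroid plexus and 8 blood genes, although blood markers summed to 796 CPM in the FXS library of batch 6 against 1170 to 2195 CPM in the other 7. Among 33 layer markers Pcp4 fell by 0.27 (0.0131), beside the same 1.20% of all genes, and the list median was 0.07. Tbr1 and Ntsr1, also on that list, were at 0.20 and 0.51 without a call (8-library adjusted p 0.0722 and 0.272). At an unadjusted p under 0.05 in that model, 6 layer markers were higher and 3 lower. Batch 6, where the myelin, thalamic and blood sums of the 2 libraries differed most, is also the batch with the widest differences in the FMRP-bound and ribosomal protein lists. Both lists had the same direction in batches 5, 7 and 8. Blood sums differed in batch 7 as well, at 2195 CPM in WT and 1170 in FXS. The part of tissue makeup in the list differences was not tested in any batch.

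The same loss of Fmr1 was also present in DKO against S6K1, a comparison that shares no library with FXS against WT, though it shares batches and the estimate of the spread. In it 55 of 14215 genes were called (0.387%). Of the 22 genes, 21 changed in the same direction, against 66.7% of all genes tested, and 8 were called in that direction: Fmr1, Akr1c18, Panx2, Slc39a3, Pls3, Phyh, Cd99l2 and Pip5k1c. Panx2 stood at 103, 146, 129 and 167 CPM in S6K1 and 149, 215, 216 and 201 CPM in DKO, a rise of 0.53 ± 0.0715 (adjusted p 0.00103). Pls3 stood at 139, 171, 163 and 149 CPM in S6K1 and 93.5, 117, 109 and 114 CPM in DKO, without overlap (-0.52 ± 0.0725, adjusted p 0.00103). Akr1c18 was again lower in all 4 batches, at 6.56, 6.01, 4.63 and 5.21 CPM in S6K1 and 3.40, 3.10, 2.94 and 3.74 CPM in DKO.

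The exception was Atp6ap1l, at 0.01 in DKO against S6K1. Pvalb and Tnnc1 were at -0.34 and -0.48 there and did not pass the test (adjusted p 0.106 and 0.0637), and Cort rose by 0.85 ± 0.16 (0.0295). Of the 446 genes of the 8-library model 409 (91.7%) had the same sign, with a median size of 0.18 in that direction against 0.28 in FXS against WT, where the genes had been picked. Of the lists, FMRP-bound mRNAs had a median of 0.08 in DKO against S6K1 and ribosomal proteins one of -0.01, beside 0.18 and -0.17 in FXS against WT. The postsynaptic scaffolds were at 0.09, the AMPA, NMDA and kainate receptors at 0.10, the potassium channels at 0.09 and the layer markers at 0.10, beside 0.16, 0.12, 0.05 and 0.07. Some other lists lay farther from zero, such as heat shock and chaperone genes at -0.09 and cholesterol genes at 0.08, beside -0.04 and 0.04. Further lists were nearer zero or changed sign. The sodium and calcium channels were at 0.04 and the vesicle genes at 0.06, beside 0.15 and 0.13. Sarcomere genes were at -0.08 and mitochondrial ribosomal proteins at -0.004, beside -0.36 and -0.09. The respiratory chain was at 0.02 and the chromatin genes at -0.04, beside -0.11 and 0.07. List differences between the 2 comparisons were not tested. No gene was called in the test of the difference between the 2 comparisons, with edgeR, with RLE size factors or with DESeq2, and 497 of 14215 genes (3.50%) had an unadjusted p under 0.05 in it.

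**Figure D5:**
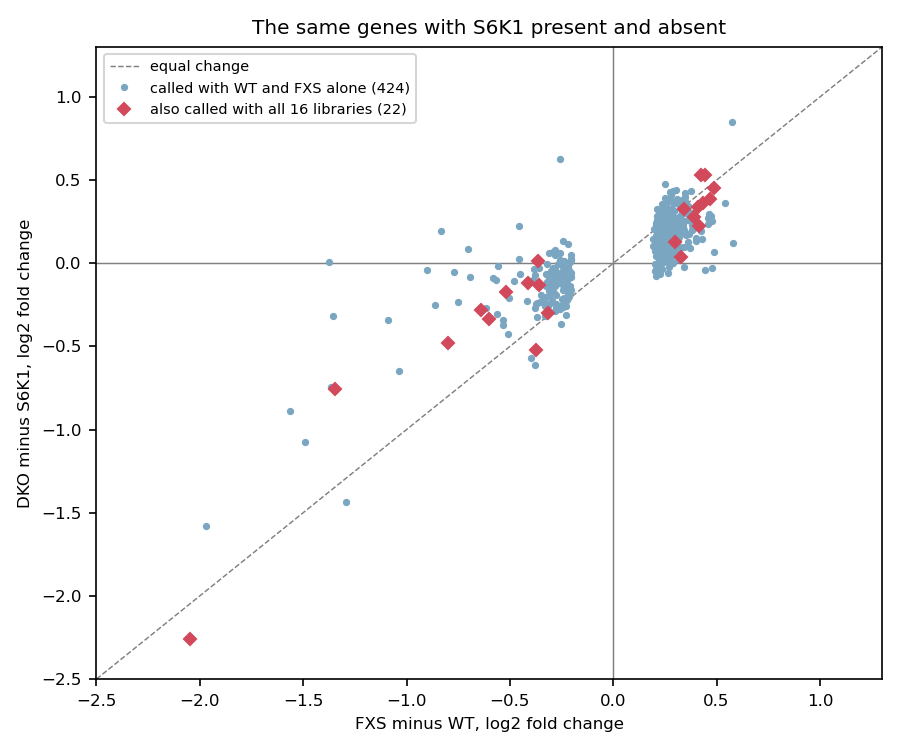
Log2 fold change of FXS minus WT (x axis) and of DKO minus S6K1 (y axis) in mRNA for the 446 genes called with the WT and FXS libraries alone, with the 22 genes of the 16-library model as red diamonds and equal change as a dashed line. Most genes lie in the lower left and upper right corners, 409 of 446, and closer to zero on the y axis than on the x axis.

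Ribosome footprints of FXS and WT cortex, from 9 separate libraries fitted with all 15 footprint libraries, gave another readout of the same genes. In footprints 23 of 13654 genes that were also tested in mRNA were called (0.168%). Of the 22 genes 14 changed in the same direction as in mRNA, against 45.8% of all genes, and 3 were called in that direction. Fmr1 footprints fell by 3.88 (adjusted p 4.00e-12), Tnnc1 footprints by 1.01 (0.0229), and Cd99l2 footprints rose by 0.42 (0.0461). Of the 11 lower genes 9 were also lower in footprints, and of the 11 higher genes 5 were also higher. Panx2 footprints were at -0.01 and Slc39a3 footprints at 0.03. Of the 446 genes 175 (39.2%) had the same sign in footprints. FMRP-bound mRNAs had a median footprint change of -0.10 and ribosomal protein mRNAs one of 0.10, each opposite in sign to the mRNA. Whether a footprint change differed from the mRNA change was not tested here.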

How the data were processed

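Polyadenylated mRNA was counted in 16 libraries of mouse cortex. The authors' deposited tables hold whole-number counts per gene symbol, and their names call these counts over coding sequence. The submitters' processing notes name cutadapt 2.0, Bowtie2, TopHat2, RSEM and mm10 without role or order, so whether counts are rounded estimates and whether strand was used is not given in the sources used here. Per the file headers, the authors' deposited comparison table gives a mean normalized signal, log2 fold changes, standard errors, test scores and raw and adjusted p-values. The libraries that entered it are not stated, and it was read only for the genes called and their signs.

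Genes passing filterByExpr were tested with edgeR 4.0.16 (TMM, robust quasi-likelihood F-test, batch + genotype) in R 4.3.3, over all 16 libraries as the main model and over the 8 WT and FXS libraries as an alternative. DESeq2 1.42.0 and limma 3.58.1 (voom) were further alternatives. CPM are TMM-scaled, and batch differences are of log2 CPM with a prior count of 2. Standard errors were computed from each gene's log2 fold change and F. Batch numbers in the labels pair the libraries, and after centring on genotype the WT and FXS libraries of a batch correlated across genes at 0.595, 0.0696, 0.221 and 0.294 in batches 5 to 8. The code was tested on simulated counts with known changes. No 2 replicates of a genotype held near-identical counts, with chi-square values of at least 6.00 per degree of freedom.

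Named genes were Fmr1, every gene called in the 16-library model, the 8 largest rises and 8 largest falls among non-overlapping genes called in the 8-library model at a mean of at least 5 CPM, and in each list up to 4 members, called ones first and then by p. Snap25, Rbfox3, Fxr1, Fxr2, Akr1c14, Panx1, Sst, Arc, Ttn, Tpm4, Nfasc, Prkcd and Rps6kb1 were named outside it as family members, markers or members of interest, chosen after values were seen, as were the genes so marked in the closing section. Some genes that the rule names are not reported here. The comparison, the gene lists and the tests were chosen with earlier results of these data known, and lists are described by counts and medians without a list test. Coordinates, spans and start-site sequences are from RefSeq on GRCm38.p6, in which 13512 of 14215 tested genes matched. A planned split by protein length was not run, because no protein table was used here, and genomic span took its place after the data were seen. Mitochondrially encoded genes were not analysed here.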

Additional observations from a re-analysis of the deposited data

Results flagged for a closer look

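In groups of 4 libraries, a value was marked when its gap to the nearest of the other 3 was a larger share of the whole range than Dixon's 95% critical value, which chance passes in about 1 of 20 groups. Of 302 groups checked, for the genes named and for the summed level of each list, 20 passed it, 14 of them in batch 5. In the WT library of batch 5, Grin1 was at 266 CPM against 554 to 594 in the other WT libraries, Syn1 at 463 against 615 to 619, Grm7 at 43.1 against 60.8 to 63.7 and Slc38a7 at 13.2 against 18.3 to 19.3. Ddit3 was higher there, at 46.9 against 37.6 to 39.1 CPM, as was Luc7l3, at 196 against 162 to 165.

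Summed lists showed batch 5 apart in both genotypes. Markers of other inhibitory interneurons summed to 1723 CPM in WT and 1749 in FXS, against 2300 to 2398 in the other 6 libraries. Cholesterol genes summed to 2533 and 2684 CPM against 4284 to 4516. Parvalbumin interneuron genes were at 2862 CPM in the WT library of batch 5, against 3527 to 3617 in the other WT libraries. In the FXS library of that batch, FMRP-bound mRNAs summed to 35551 CPM against 49334 to 51201 in the other FXS libraries. Glutamate receptor genes summed to 2613 CPM there against 3657 to 3855. The mTORC1 pathway genes were higher there, at 3133 CPM against 2971 to 2982. The difference between genotypes within batch 5 had the same sign as in the other batches for the 22 called genes and for the medians of the FMRP-bound and ribosomal protein lists. The 22 genes had been called with batch 5 included.

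In the WT library of batch 8, Neurl1a stood apart at 132 CPM, Neurl1b at 8.42, Dlgap4 at 386 and Uqcrb at 148. Each of these 4 values was on the side of the FXS libraries. In the WT library of batch 6, Rpl23 was at 576 CPM against 510 to 520, and choroid plexus markers summed to 1087 CPM against 414 to 485.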

How the results depend on the processing

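The count of 22 called genes changed with nearly every choice, while no log2 fold change changed sign in any of 22 alternatives among 102 genes for which they were run, the 22 called genes included. Fitting the 2 genotypes alone with the batch as replicate block gave 446 genes, no replicate block 2 (Fmr1 and Akr1c18), RLE size factors 42, no filter on low counts 35, DESeq2 204 and limma voom 9. Without batch 5 it was 8. The following were chosen after seeing the data: without batch 6, 7 or 8 the count was 3, 2 and 339, and with the 2 genotypes alone and without batch 5, 6, 7 or 8 it was 130, 79, 27 and 1169. Leaving out 1 library gave 2 to 86 genes. The causes were not tested, beyond the fewer libraries that a left-out batch or library leaves. The 55 genes of DKO against S6K1 became 1 without the replicate block, 126 with RLE size factors and 354 with DESeq2, and the genotype interaction stayed at 0.

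List medians changed sign 64 times over 19 of 50 lists, all genes included, and no median beyond 0.155 in size did. The medians of the FMRP-bound, synaptic, ribosomal protein, sarcomere and immediate early gene lists kept their sign in every alternative. With 1 library left out, the clock list ranged from -0.0321 to 0.0780, the cholesterol list from -0.00831 to 0.102, the fibroblast list from -0.00279 to 0.242 and the genes near Fmr1 from -0.000424 to 0.0957. Depth limits what can be read of Akr1c18, Dnah6 and other weakly expressed genes. With 4 libraries a genotype, changes under about 0.3 on the log2 scale passed only in the 8-library model.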

Other observations

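Several weakly expressed genes fell further than most of those described above, and are given as values chosen after they were seen. Dnah6, a heavy chain of the dynein of motile cilia, stood at 7.67, 1.89, 4.41 and 6.46 CPM in the WT libraries of batches 5 to 8 and at 1.22, 0.691, 1.18 and 2.28 CPM in the FXS libraries. It was lower in FXS in each batch with a slight overlap, and its log2 fold change was -1.92 ± 0.252 in the 8-library model (edgeR, adjusted p 0.000179) and -1.97 in the 16-library model (0.0713). In DKO against S6K1 it was at -1.58, with an unadjusted p of 0.0052. Ntn5, a netrin, stood at 3.77, 6.15, 5.50 and 11.6 CPM in WT and at 1.72, 3.22, 3.23 and 4.85 CPM in FXS. Its log2 fold change was -1.02 ± 0.183 (8-library adjusted p 0.00447, 16-library 0.0548), and it was -1.02 in footprints.

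A pair of further sarcomere genes outside the list described above also fell in the 8-library model. Tcap, the titin cap protein, stood at 6.16, 4.73, 8.58 and 7.62 CPM in WT and at 3.77, 3.30, 3.82 and 4.92 CPM in FXS (-0.76 ± 0.176, adjusted p 0.0194). Mybpc3, the cardiac myosin-binding protein C, stood at 2.26, 2.68, 4.16 and 3.55 CPM in WT and at 1.44, 1.84, 1.76 and 1.64 CPM in FXS (-0.89 ± 0.252, 0.0496). Mybpc3 did not overlap between genotypes, while 1 FXS library of Tcap exceeded the lowest WT library. In DKO against S6K1 the changes were -0.05 for Tcap and -0.04 for Mybpc3, with unadjusted p of 0.797 and 0.872, and the 16-library model called neither in FXS against WT (0.113 and 0.102).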
